A study of Mus musculus with 2 samples.

Results

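The regions described here are the strongest Klf4 peaks of mouse mesenteric vessels, the peaks chosen by a score of 300 or more on chromosomes 1 to 19 and X. They number 271 of the 7298 peaks placed on these chromosomes (3.71%, exact binomial 95% interval 3.29 to 4.17) and of 7313 in the whole list. Klf4 chromatin immunoprecipitation and sequencing (ChIP-seq) was done on mesenteric arcades, the vessels that run through the mesentery to the gut, of chow-fed C57BL/6 mice. The study has 2 libraries, 1 from eYFP+/+ Klf4WT/WT mice and 1 from eYFP+/+ Klf4delta/delta mice, in which the gene is deleted in smooth muscle cells (SMC). Both genotypes are eYFP+/+, and both were precipitated with the same anti-Klf4 antibody. The sources used here do not name the promoter that drives the deletion, the sex and age of the animals, or whether animals were pooled. The labels call the material a mixture of SMC, epithelial cells, macrophages and others, so no peak can be placed in 1 cell type. If the deletion is limited to SMC, the other cells of the deleted animals still have the gene.

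Klf4 is a zinc-finger transcription factor of the Krüppel-like family, which binds GC-rich DNA at promoters and enhancers. It is known from pluripotent cells, from the epithelia of skin and gut, from endothelium and macrophages, and from SMC that leave the contractile state. In ChIP-seq, a peak is a stretch of genome where precipitated fragments pile up above a background, and the peak caller gives each peak a width and a score that rises as the pile-up becomes less likely under that background.

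The deposited list is 1 set of peaks with no genotype attached. The sources used here do not say which library gave the peaks, or whether the other served as background, so no value below compares genotypes or shows that a peak needs Klf4. There are no replicates, and the read depth of both libraries is unknown. Intervals cover counting error only, and no p-value is given: the score chose these peaks, and width and score per kb come from the same peak calling. Positions are 1-based in the mouse build mm9. No peak was assigned to a gene, exon or promoter, since the gene table used here is of another build.

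Scores within the set were concentrated near its lower edge. The median score was 367.2, with quartiles of 323.7 and 433.3, and 115 of the 271 peaks (42.4%) scored under 350. A score of 400 or more was reached by 91 peaks and a score of 500 or more by 35. The 271 peaks held 6.68% of the bases covered by all placed peaks (0.484 of 7.26 Mb) and 11.0% of the summed score.

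No gap in score marks the edge of the set. The 5 lowest-scoring peaks inside it had scores of 300.08 to 300.92, and the 5 highest outside it 299.32 to 299.97. Just inside were a 1871 bp peak on chromosome 13 at 94267918 to 94269788 (score 300.08) and a 1725 bp peak on chromosome 3 at 136333261 to 136334985 (score 300.21). Just outside were a 2650 bp peak on chromosome 1 at 178742793 to 178745442 (score 299.97) and a 1525 bp peak on chromosome 2 at 167328601 to 167330125 (score 299.86). The other 3 inside lay on chromosome 17 at 26389643 to 26390893 (score 300.31), chromosome 8 at 3278584 to 3279919 (score 300.51) and chromosome 5 at 29760966 to 29762104 (score 300.92). The other 3 outside lay on chromosome 3 at 95462748 to 95466179 (score 299.5), chromosome 11 at 50023095 to 50024609 (score 299.37) and chromosome 1 at 16094525 to 16095681 (score 299.32). The 5 inside were 1139 to 1871 bp wide and the 5 outside 1157 to 3432 bp.

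Strongest peaks were wide. Their median width was 1711 bp (95% interval of the median 1601 to 1805). The quartiles were 1359 and 2072 bp, and widths ran from 627 to 4669 bp. Peaks scoring under 300 had a median of 897 bp (886 to 907), so the ratio of medians was 1.91. Against the next class down, the 777 peaks scoring 200 to 300 with a median of 1277 bp (1245 to 1322), the ratio was 1.34. A width of 2000 bp or more was found in 82 of 271 strongest peaks (30.3%, 24.8 to 36.1) and in 117 of 7027 lower-scoring peaks (1.67%, 1.38 to 1.99). Of all peaks that wide, 41.2% belonged to the strongest set. A width under 1000 bp, the size of most peaks in the list, was held by 13 of the 271.

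**Figure D1:**
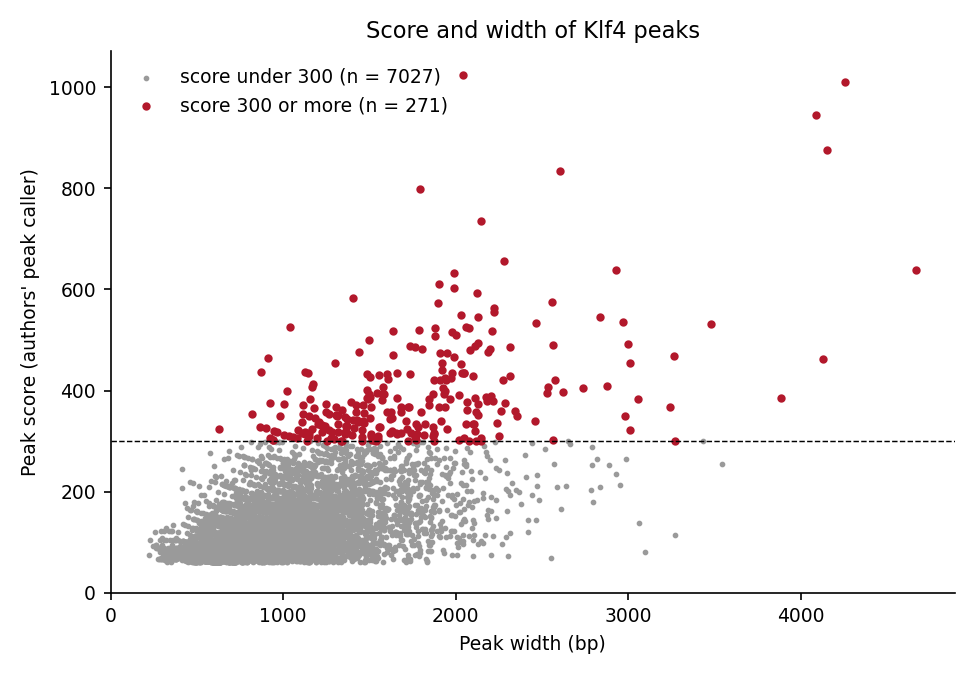
Each point is 1 placed peak, with its width in bp on the horizontal axis and its score on the vertical axis, in red from a score of 300 (271 peaks) and in grey below it (7027 peaks). Red points spread from 627 to 4669 bp, and wide peaks also occur far below the dashed line at 300.

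The share of strongest peaks rose with width, without reaching all peaks in any width class. The strongest set held 13 of 4305 peaks under 1000 bp (0.302%), 86 of 2226 from 1000 to 1500 bp (3.86%), 90 of 568 from 1500 to 2000 bp (15.8%), 69 of 181 from 2000 to 3000 bp (38.1%) and 13 of 18 at 3000 bp or more (72.2%, 46.5 to 90.3). Wide peaks with low scores existed, and a 3098 bp peak on chromosome 11 at 69222495 to 69225592 had a score of 80.12. Among the strongest peaks, score and width were related with a Spearman's rho of 0.44 over 271 peaks, and among lower-scoring peaks with 0.51 over 7027. Both values come from the same pile-up of fragments in each peak, so this is a description.

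Score per kb, the score divided by the width, was also higher in the strongest peaks. Its median was 231.7 (95% interval 221.1 to 241.8), with quartiles of 189.4 and 270.6 and a range of 92.0 to 517.4. Peaks scoring under 300 had a median of 126.8 (125.6 to 128.3), a ratio of 1.83, and peaks scoring 200 to 300 had 186.2 (180.8 to 192.3), a ratio of 1.24. At the median, strongest peaks were both wider and higher in score per kb than the others. This is a description, since the score that chose them is the numerator of score per kb. Within the set, wider peaks had the lower score per kb (rho = -0.71 over 271 peaks). Width is also the divisor of this measure.

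Width and score per kb rose by class without a step at 300. The median width was 728.5 bp at scores of 60 to 100, 1100.5 bp at 150 to 200, 1355.5 bp at 250 to 300, 1509.5 bp at 300 to 400 and 2124 bp at 500 or more. The median score per kb over the same classes was 106.6, 156.4, 201.1, 224.4 and 260.6. From 300 to 400 and from 400 to 500 the median score per kb was 224.4 (210.6 to 237.3) and 230.8 (219.0 to 257.5), with overlapping intervals, while the median width was 1509.5 bp (1456 to 1617) and 1933 bp (1766 to 2035), with intervals that do not overlap.

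**Figure D2:**
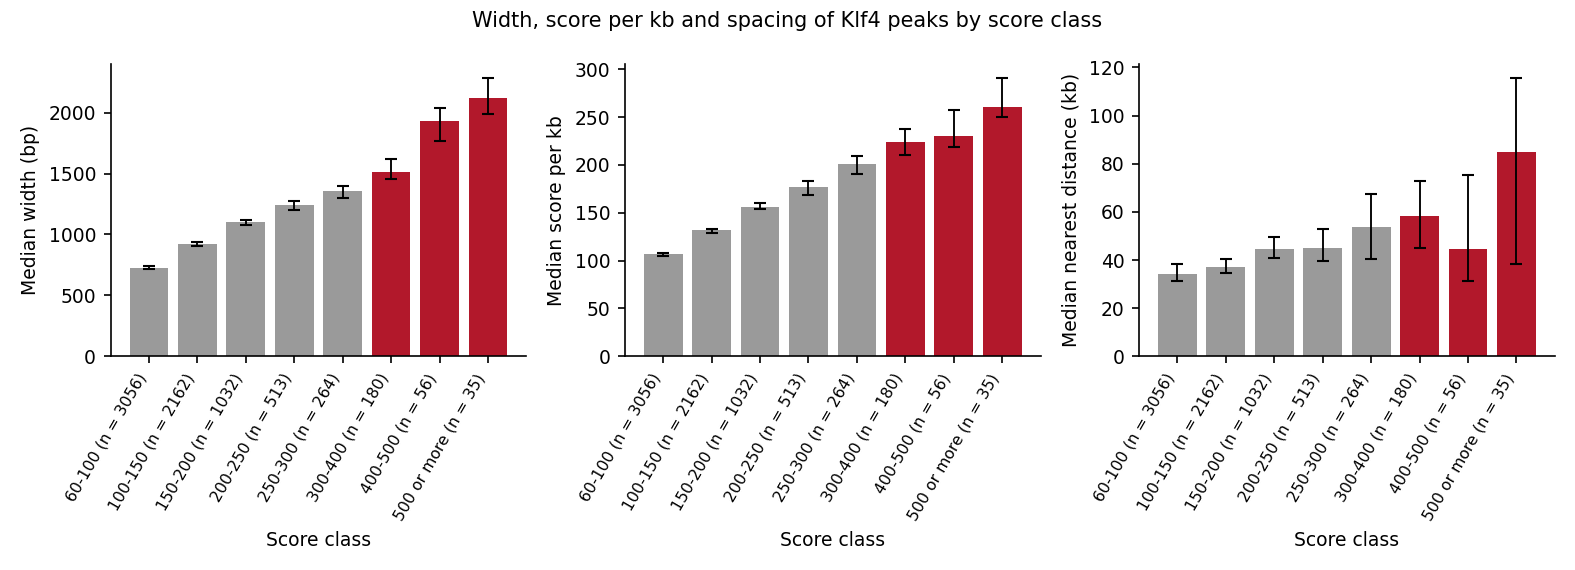
Bars give the median width (bp), the median score per kb and the median distance to the nearest other peak (kb) in 8 score classes, with the number of peaks in each label, error bars for the exact 95% interval of the median, and red for scores of 300 or more. Width and score per kb rise over all 8 classes (728.5 to 2124 bp and 106.6 to 260.6), whereas the interval of the distance widens to 38.3 to 115.5 kb in the last class.

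Most peaks with the highest score per kb were not among the strongest by score. Of the 271 peaks with the highest score per kb, 76 (28.0%) were also strongest peaks by score, and of the 271 widest, 105 (38.7%) were. Both shares were above the 3.71% that strongest peaks made up of all placed peaks. Only 10 of the strongest peaks stood in both of those lists, and 100 stood in neither. Width is the divisor of score per kb, which by itself limits the overlap of those lists. The 271 peaks with the highest score per kb had a median width of 743 bp, a median score of 241.3 and a lowest score of 74.27. Outside the strongest set, 411 peaks (5.85% of those under 300) exceeded its median score per kb. The steepest was a 411 bp peak on chromosome 13 at 51298039 to 51298449, with a score of 245.3 and a score per kb of 596.8, above every strongest peak.

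The extremes of shape lay at different places. The narrowest strongest peak, 627 bp on chromosome 14 at 25305703 to 25306329, had a score of 324.43 and also the highest score per kb of the set, 517.4. It was followed in score per kb by a 914 bp peak on chromosome 9 at 35018682 to 35019595 (score 464.95, 508.7 per kb). A 1040 bp peak on chromosome 12 at 3426839 to 3427878 (score 524.9, 504.7 per kb) and an 869 bp peak on chromosome 17 at 23683500 to 23684368 (score 437.11, 503.0 per kb) came next. Only the fifth in this order, at 501.6 per kb, was one of the highest-scoring peaks, the 2041 bp peak on chromosome 8 with the top score of 1023.8. Of the 9 strongest peaks at 400 or more per kb, 3 lay in the highest 15 by score. The 5 narrowest were completed by peaks of 818 bp on chromosome 18 (score 353.85), 868 bp on chromosome 3 (score 328.68) and 899 bp on chromosome 6 (score 325.09).

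At the other end, the peak with the lowest score per kb, 92.0, was 3272 bp wide and lay on chromosome 13 at 114405408 to 114408679 (score 300.95). A 3882 bp peak on chromosome 5 at 143575435 to 143579316 had a score of 385.51 and 99.3 per kb. A 3012 bp peak on chromosome 13 at 81022627 to 81025638 (106.8 per kb) and a 4128 bp peak on chromosome 2 at 44964675 to 44968802 (112.2 per kb) had scores of 321.81 and 463.28. The fifth in this order was a 3240 bp peak on chromosome 17 at 84584187 to 84587426 (score 368.34, 113.7 per kb). These broad, shallow regions are the opposite of the compact ones above, and the list orders both by score alone. The 4128 bp peak was the only one of the 5 widest to rank outside the highest 10, at rank 55.

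The 10 highest peaks differed in score per kb by a larger ratio than in score. Rank 1 (chromosome 8, 20018833 to 20020873) and rank 6 (chromosome 8, 19784192 to 19785985) had 501.6 and 445.4 per kb. Rank 2 (chromosome 10, 96079721 to 96083978), rank 3 (chromosome 16, 55819213 to 55823297) and rank 4 on chromosome 19 had widths over 4000 bp and 237.3, 231.2 and 211.1 per kb, near the median of the set. Rank 9 (chromosome 10, 98724646 to 98729314), the widest of all, had 136.9 per kb. The score fell 1.60 times over these 10 ranks and the score per kb differed up to 3.66 times. These peaks were picked as the highest by score, which by itself narrows their range of scores. Rank 5 (chromosome 9, 44411732 to 44414335) had 320.3 per kb and rank 7 (chromosome 13, 37918044 to 37920190) had 342.7. Rank 8 (chromosome 11, 70465944 to 70468225) and rank 10 (chromosome 14, 26278421 to 26281350) had 287.9 and 218.0 per kb, and they were the only ones of the 10 with another peak under 10 kb away, at 3.97 and 1.51 kb.

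Below the 10 highest, scores fell slowly, from 632.1 at rank 11 to 487.82 at rank 40. Chromosome 6 held its highest peak at rank 12, 86474072 to 86475972, with a score of 611.05 over 1901 bp. Chromosome 12 held its highest at rank 13, 82045833 to 82047821 (score 603.28, 1989 bp). Chromosome 8, which already had ranks 1 and 6, also had rank 14 at 19891692 to 19893815 (score 593.01, 2124 bp) in the same stretch. These 3 lay 105.7 and 125.0 kb apart with no other peak between them. Rank 19 was on the same chromosome, far from them, at 119780759 to 119782977 (score 555.81, 2219 bp).

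Several of ranks 15 to 40 were broad. A 3479 bp peak on chromosome 11 at 86397162 to 86400640 had a score of 532.18 (rank 25). On chromosome 15, peaks of 2838 bp at 61817006 to 61819843 (score 546.26, rank 21), 2464 bp at 12250479 to 12252942 (score 532.72, rank 24) and 2995 bp at 81686890 to 81689884 (score 492.96, rank 38) were all wider than the third quartile of the set. Chromosome 19 held a 2559 bp peak at 46576336 to 46578894 (score 574.91, rank 16), with a weaker neighbour 1014 bp away. Chromosome 11 held a 2566 bp peak at 98063326 to 98065891 (score 490.34, rank 39). In contrast, 3 of these ranks were compact: 1403 bp on chromosome 7 at 130113222 to 130114624 (score 582.53, rank 15), 1040 bp on chromosome 12 (rank 26, given above) and 1499 bp on chromosome 13 at 102536648 to 102538146 (score 499.48, rank 36).

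The remaining peaks of this range without a close neighbour were between 1789 and 2223 bp wide. Chromosome 3 held 51906749 to 51908971 (score 563.71) and 108713049 to 108715259 (score 517.23). Chromosome 11 held 74536387 to 74538284 (score 574.0), and chromosome 12 held 41171640 to 41173670 (score 549.17). Chromosome 13 held 17894689 to 17896817 (score 545.49), and chromosome 19 held 10057159 to 10059038 (score 523.79). All 6 were wider than the median of the set and lay at least 34.5 kb from any other peak. On chromosome 5 the highest peak was 138187113 to 138189190 (score 522.74), and on chromosome 4 it was 134479080 to 134481082 (score 510.38). Chromosome 16 had a peak at 23107564 to 23109352 (score 519.78), chromosome 14 one at 32307311 to 32309289 (score 515.72) and chromosome 10 one at 36857023 to 36858902 (score 508.5). Of these 5, the chromosome 4 peak was the one with another peak near, 5.56 kb away.

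Most strongest peaks stood 10 kb or more from any other peak, but 181 of 271 (66.8%) had one under 100 kb away. The median distance from edge to edge was 58.0 kb (95% interval 45.7 to 72.0), with quartiles of 23.2 and 129.9 kb. Peaks scoring under 300 had a median of 38.8 kb (37.0 to 40.8), and those scoring 200 to 300 had 48.0 kb (42.4 to 54.0), an interval that overlaps with that of the strongest peaks. Within the set the medians were 58.2 kb (scores of 300 to 400), 44.5 kb (400 to 500) and 84.8 kb (500 or more), without a steady rise. By distance, 24 strongest peaks had a neighbour under 1 kb away, 20 at 1 to 10 kb, 137 at 10 to 100 kb, 87 at 100 kb to 1 Mb and 3 at 1 Mb or more. A neighbour under 10 kb away was found for 16.2% (12.1 to 21.2) of strongest peaks, 25.9% (24.9 to 27.0) of all lower-scoring peaks and 19.2% (16.5 to 22.1) of those scoring 200 to 300. A nearest distance of 100 kb to 1 Mb was found for 32.1% (26.58 to 38.0), 25.5% (24.5 to 26.51) and 29.5% (26.3 to 32.8), in the same order. In both ranges the interval of the strongest peaks was apart from that of all lower-scoring peaks and overlapped with that of peaks scoring 200 to 300. By class within the set, a neighbour under 10 kb away was found for 14.4% (300 to 400), 17.9% (400 to 500) and 22.9% (500 or more). The last of these had an interval of 10.4 to 40.1. At 1 Mb or more the shares of strongest and of all lower-scoring peaks were 1.11% (0.229 to 3.20) and 1.52% (1.25 to 1.84).

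**Figure D3:**
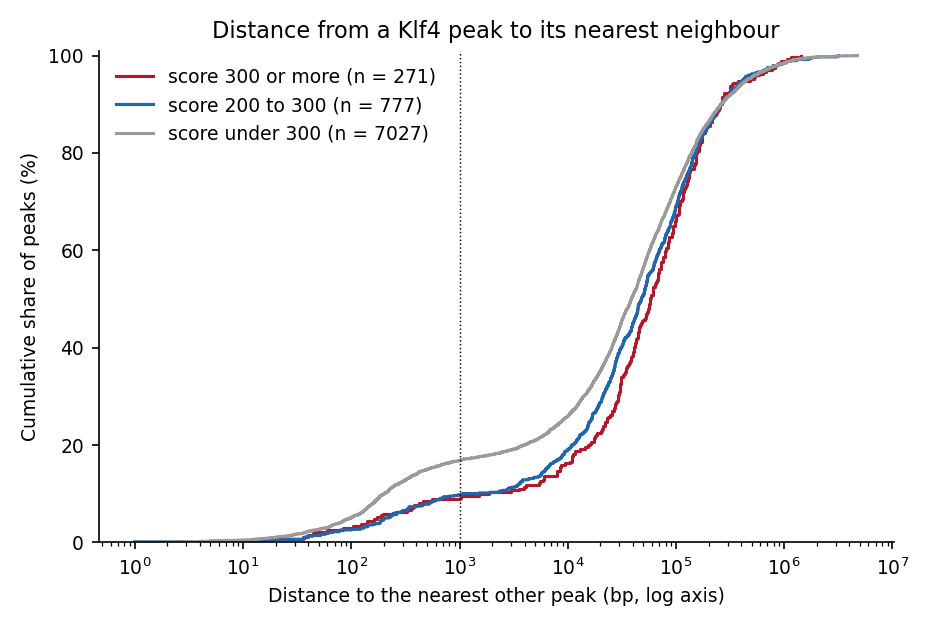
The curves give the cumulative share of peaks (%) against the distance from edge to edge to the nearest other peak (bp, log axis) for scores of 300 or more (red, 271 peaks), 200 to 300 (blue, 777 peaks) and under 300 (grey, 7027 peaks). At the dotted line at 1000 bp the red and blue curves stand at 8.86% and 9.78% and the grey curve at 16.9%.

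The most isolated of the set was an 868 bp peak on chromosome 3 at 63779988 to 63780855 (score 328.68), 1.41 Mb from any other peak. Next was the 2838 bp peak on chromosome 15 at rank 21, at 1.16 Mb, and a 1124 bp peak on chromosome 4 at 26272958 to 26274081 (score 318.84), at 1.06 Mb. The fourth was the chromosome 13 peak at rank 36, at 0.933 Mb, and the fifth a 1976 bp peak on chromosome 1 at 6203839 to 6205814 (score 433.81), at 0.873 Mb. Their scores ran from 318.84 to 546.26, so isolated strongest peaks were found both near the edge of the set and among its highest.

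Close neighbours of strongest peaks were mostly low-scoring peaks. The 24 strongest peaks with a neighbour under 1 kb away (8.86%, 5.76 to 12.9) had gaps of 6 to 562 bp, with a median of 151 bp. The neighbours scored 61 to 205.99, with a median of 79.98, and 16 of the 24 scored under 100. Close neighbours of peaks under 300 had a median score of 100.6, with 587 of 1185 under 100. The neighbours were 491 to 1480 bp wide, with a median of 785 bp. In 1 case, on chromosome 12 at 110031113 to 110032420 (score 351.48), such a neighbour lay on both sides, 174 and 228 bp away.

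The highest peak with such a neighbour was rank 11 on chromosome 10 at 114821686 to 114823677 (score 632.1), 190 bp from a peak scoring 79.98. Rank 23, on chromosome 11 at 102178227 to 102181192 (score 535.5), lay 60 bp from a peak scoring 72.3. Rank 27, on chromosome 17 at 29169595 to 29171653 (score 524.74), lay 123 bp from one scoring 81.47. All 3 of these neighbours scored under 100. Rank 32 was on chromosome 9 at 20448284 to 20449918 (score 516.9), 139 bp from a peak scoring 118.81. Rank 37 was on chromosome 7 at 80701324 to 80703451 (score 494.89), and rank 40 on chromosome 12 at 81212012 to 81214122 (score 487.82), with gaps of 46 and 84 bp. The shortest gap, 6 bp, was beside a 2216 bp peak on chromosome 4 at 154594477 to 154596692 (score 380.3), whose neighbour scored 61. The others of the 5 shortest were the 4128 bp peak on chromosome 2 (18 bp), a peak on chromosome 15 at 98701051 to 98702651 (36 bp), one on chromosome 3 at 52071323 to 52073352 (40 bp) and one on chromosome 5 at 22940247 to 22941816 (44 bp). The chromosome 3 peak had the strongest of all these neighbours, scoring 205.99.

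The share with a close neighbour was lower in strongest peaks than in peaks under 300 (16.9%, 16.0 to 17.8). By class it was 6.67% (3.49 to 11.4) at 300 to 400, 14.3% (6.38 to 26.2) at 400 to 500 and 11.4% (3.20 to 26.7) at 500 or more. In the classes from 400 up the intervals overlapped with that of peaks under 300. The interval of the whole set overlapped with that of peaks scoring 200 to 300 (9.78%, 7.78 to 12.1) and with that of lower-scoring peaks of like width. From 1500 to 2000 bp, 8 of 90 strongest peaks (8.89%, 3.92 to 16.8) and 34 of 478 lower-scoring peaks (7.11%, 4.98 to 9.80) had one. From 2000 to 3000 bp the counts were 8 of 69 (11.6%, 5.14 to 21.6) and 9 of 112 (8.04%, 3.74 to 14.7). From 1000 to 1500 bp they were 6 of 86 (6.98%, 2.60 to 14.6) and 242 of 2140 (11.3%, 10.0 to 12.7). The intervals overlapped in each of these width classes. The high share under 300 came with narrow peaks, since 899 of 4292 lower-scoring peaks under 1000 bp (20.9%, 19.7 to 22.2) had a close neighbour.

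**Figure D4:**
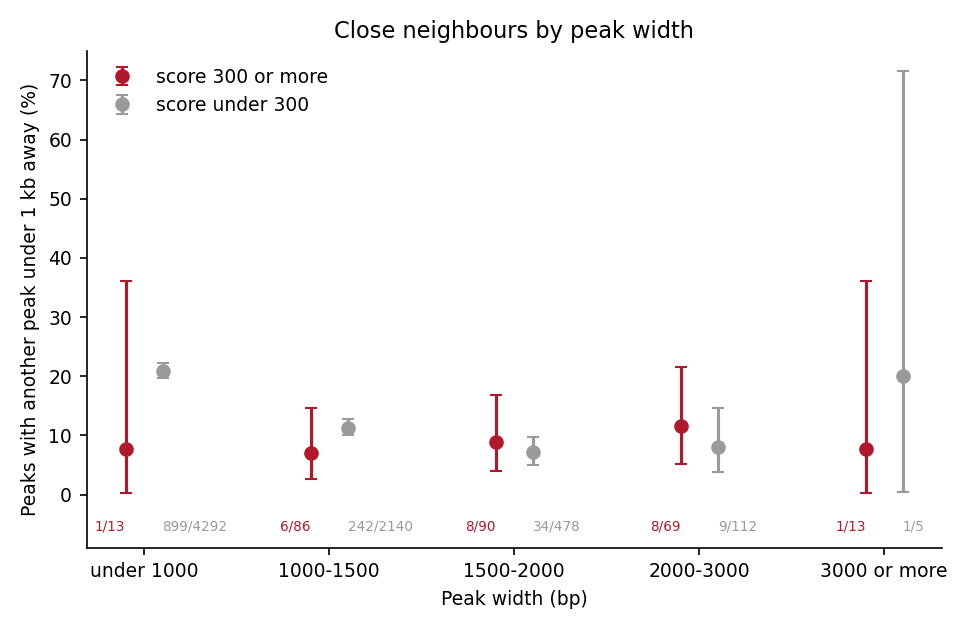
Points give the share of peaks (%) with another peak under 1 kb away in 5 width classes (bp), for scores of 300 or more (red) and under 300 (grey), with exact binomial 95% intervals as bars and the counts printed below. Grey falls from 20.9% under 1000 bp to 7.11% at 1500 to 2000 bp, and the red and grey intervals overlap in every class.

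The nearest peak of a strongest peak scored much like that of any other peak. Its score had a median of 108.8 (95% interval 101.8 to 120.1) beside strongest peaks and 109.6 (107.5 to 112.0) beside peaks under 300. Local density was also alike, with a median of 5 other peaks (5 to 6) within 500 kb on each side of a strongest peak and 6 (5 to 6) around peaks under 300. The range was 0 to 26 in the strongest set, with the upper end shared by the chromosome 19 peak at 5798480 to 5802629 (score 876.24, rank 4) and a chromosome 10 peak at 127929359 to 127930908 (score 303.74, rank 251). High scores were therefore found in crowded and in empty surroundings.

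Strongest peaks were spread over all 20 chromosomes. They numbered 31 on chromosome 11, 18 on chromosomes 2 and 4 each, 17 on chromosomes 5 and 6 each, and 8 on chromosomes 18 and 19 each, and 17 of the 19 autosomes held 10 or more. A score of 500 or more was reached on 16 of 19 autosomes, and not on chromosomes 1, 2, 18 and X. Chromosome 1 had its highest peak at 174012161 to 174013797 (score 470.02), chromosome 2 at 156688004 to 156689954 (score 474.57) and chromosome 18 at 73732857 to 73734592 (score 487.38). Chromosome 2 thus had the most strongest peaks after chromosome 11, tied with chromosome 4, but none in the highest 48.

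Per peak, the shares of the autosomes had overlapping intervals. Strongest peaks made up 3.77% (3.34 to 4.23) of the 7168 autosomal peaks, from 2.26% on chromosome 7 (12 of 530, 1.18 to 3.92) to 5.02% on chromosome 11 (31 of 617, 3.44 to 7.06). The interval of each of the 19 autosomes held the autosomal share, so at these counts no autosome could be told from it. A score of 400 or more was held by 16 of the 617 peaks on chromosome 11 and by 91 of the 7168 on all autosomes. The share on chromosome 11 was thus the higher at that cutoff, for which no interval was computed. Over the 19 autosomes, the number of strongest peaks and that of other peaks were related with Pearson's r = 0.75 and Spearman's rho = 0.77, a description over chromosomes that share 1 peak list. With the number of protein-coding genes r was 0.60 and rho 0.77. With the span from first to last peak r was 0.48 and rho 0.80, so the relation by rank was not particular to peak number. Per Mb between the first and last peak of a chromosome, strongest peaks numbered 0.0804 on chromosome 7 to 0.262 on chromosome 11. Per 1000 protein-coding genes the range was 5.91 on chromosome 7 to 19.3 on chromosome 11.

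Chromosome X held 1 strongest peak, at 98835357 to 98836781 (score 341.3, rank 168, 1425 bp). This is 0.769% of its 130 peaks, with an interval of 0.0195 to 4.21 that overlaps the autosomal share, and 4.90 would stand there at that share. Per 1000 protein-coding genes it came to 1.04 against 13.1 on the autosomes. X had few peaks of any score, 130 beside 966 protein-coding genes, against 7168 beside 20665 on the autosomes. X was thus lower per gene over all peaks too, but by less than over the strongest peaks. Scores of 200 to 300 were held by 2 of the 130 peaks on X and by 775 of the 7168 on the autosomes, also a lower share on X.

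**Figure D5:**
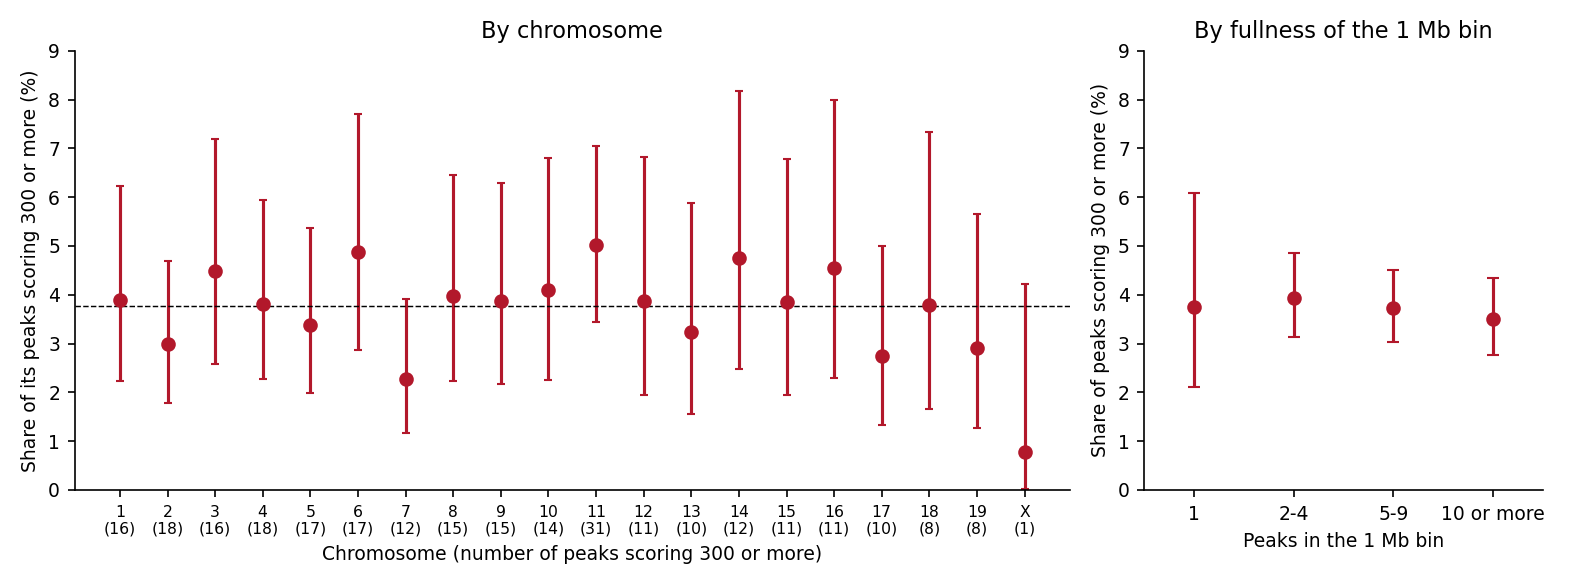
Points give the share of peaks (%) that score 300 or more, by chromosome (left, with the number of such peaks in brackets and the autosomal share of 3.77% dashed) and by the number of peaks in the 1 Mb bin (right), with exact binomial 95% intervals as bars. Autosomes lie between 2.26% and 5.02% and X at 0.769%, and the 4 kinds of bin between 3.49% and 3.93%.

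In bins of 1 Mb, strongest peaks were spread thinly. They occupied 237 of the 1704 bins that held any peak (13.9%), with 1 in 207 bins, 2 in 26 and 3 in 4. Their share among peaks was similar in empty and in crowded bins, with overlapping intervals: 3.74% (2.11 to 6.09) of peaks that were alone in their bin, 3.93% (3.13 to 4.86) in bins with 2 to 4 peaks, 3.72% (3.04 to 4.51) with 5 to 9 and 3.49% (2.76 to 4.35) with 10 or more. The share of bins with a strongest peak rose with the number of peaks in the bin, from 3.74% (15 of 401) and 10.7% (78 of 730) to 20.3% (84 of 413) and 37.5% (60 of 160). At a similar share per peak, a bin with more peaks holds a strongest peak more often. The rise therefore adds nothing about where strongest peaks lie. The fullest bin of the list, with 25 peaks at 52 to 53 Mb on chromosome 7, held 2 of them. A bin with 24 peaks at 108 to 109 Mb on chromosome 9 and one with 23 at 35 to 36 Mb on chromosome 17 held none. Conversely, ranks 1 and 2 were each the only peak in their bin. For rank 1 this came from the bin edge, since ranks 6 and 14 lay within 500 kb of it in the bin before. Rank 2 had no other peak within 500 kb.

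Bins with 3 strongest peaks lay on chromosomes 3 and 11 only. On chromosome 11 at 98 to 99 Mb, with 17 peaks in all, they were 98009854 to 98011792 (score 424.64), the rank 39 peak given above, and 98656752 to 98658800 (score 434.39). At 72 to 73 Mb on the same chromosome, with 7 peaks, they scored 420.28 at 72019849 to 72021791, 328.46 at 72608742 to 72610524 and 346.38 at 72989879 to 72991506. At 79 to 80 Mb, with 10 peaks, they scored 427.67 at 79066724 to 79068226, 314.7 at 79893156 to 79894513 and 375.29 at 79997045 to 79997966. In these 3 bins no strongest peaks were closer than 51.5 kb. On chromosome 3 at 51 to 52 Mb, with 6 peaks, the members were 51080302 to 51081721 (score 371.84), 51219214 to 51221313 (score 333.62) and the rank 18 peak. Another strongest peak, with a neighbour 40 bp away, lay 162.4 kb beyond rank 18 in the next bin.

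Few strongest peaks had another strongest peak as their nearest, and few lower-scoring peaks did. The nearest peak was itself a strongest peak for 14 of 271 strongest peaks (5.17%, 2.85 to 8.52) and for 252 of 7027 lower-scoring peaks (3.59%, 3.16 to 4.05), with overlapping intervals. Between consecutive ones on a chromosome the median gap was 4.34 Mb, with quartiles of 1.18 and 12.02 Mb, and a median of 17 weaker peaks lay between them. Of 251 such gaps, 59 (23.5%) were under 1 Mb, 10 under 100 kb and 0 under 10 kb. Thus 20 of the 271 (7.38%, 4.57 to 11.2) had another strongest peak within 100 kb. The closest pair lay on chromosome 12, 11.0 kb apart, at 70284065 to 70286378 (score 485.93) and 70297349 to 70299394 (score 435.03). The next lay on chromosome 8, 41.2 kb apart, at 109416416 to 109418185 (score 333.91) and 109459363 to 109461021 (score 434.88). Both pairs had no weaker peak between them, as had 5 of the 10 pairs under 100 kb. The third pair, 51.5 kb apart, was the one on chromosome 11 at 98 Mb. The longest stretch without a strongest peak, 54.5 Mb on chromosome 5 between 34680057 and 89149206, held 103 weaker peaks.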

How the data were processed

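Klf4 ChIP-seq was done on 2 libraries, 1 per genotype. The authors deposited 1 peak list for the series, with chromosome, start, end, name and a score per peak in that deposited list. Its names begin with MACS, which is taken as the peak caller. The submitters' processing notes name Bowtie, SAMtools and the build mm9, while versions, thresholds, the control used and read depth are not stated there. The scale of the score is not stated, so it was used only to order and describe peaks. Sums, ratios and score per kb describe the listed numbers and not amounts of binding. Steep and shallow refer to score per kb alone.

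Starts were shifted by 1 base. Peaks on chromosomes 1 to 19 and X were kept, and 15 peaks on unplaced sequences, with scores up to 259.9, were left out. Distances run from edge to edge, bins of 1 Mb take the midpoint, and shares carry exact binomial (Clopper-Pearson) and medians exact order-statistic 95% intervals. Neighbouring peaks are not independent, so these intervals are too narrow. Numbers of protein-coding genes come from a RefSeq table of GRCm38.p6, used for chromosome totals only. Sequences and motifs were not examined.

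The set and its cutoff were chosen with earlier results of these data known. Peaks named are ranks 1 to 40 by score, the highest of each chromosome, 5 at each side of the cutoff, the 5 extremes in width, score per kb and distance, and those in bins with 3 or more. Other peaks named, outside the set or in pairs, were chosen after their values were seen. Alternatives were cutoffs of 250 and 400, merging under 1 kb, ranking by score per kb, midpoint distances, shifted bins and comparison with scores of 200 to 300. The steps were tested on simulated peaks. The tools were scipy 1.17.1, pandas 2.3.3 and numpy 2.4.6 under Python 3.11.15, with plots drawn in matplotlib 3.10.9.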

Additional observations from a re-analysis of the deposited data

How the results depend on the processing

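Of 33 alternatives over 9 results, 14 stayed within the interval of the value, or within 1.5 times for a count, and 19 moved. The ratios of medians, given here without an interval, were counted among those that moved. Among those that stayed, the count of 271 under ranking by score per kb could not move, since the same number was taken. A cutoff of 250 gave 535 peaks, a median width of 1492 bp, 215.3 score per kb, 2 peaks on X and 436 bins. A cutoff of 400 gave 91 peaks, 1992 bp, 249.4 per kb, 13.2% with a neighbour under 1 kb away, 0 peaks on X and 84 bins. Ranking by score per kb gave a median width of 743 bp, 306.5 per kb, 23.6% with a close neighbour and 2 peaks on X. The share with a close neighbour became 0 by construction with peaks merged, and 0 between midpoints, which for wide peaks lie over 1 kb apart. Against peaks of 200 to 300 only, the ratio of median widths was 1.34 and that of score per kb 1.24. The share of peaks at transcription starts was not run, for want of gene positions in mm9. No paired analysis was possible because each genotype has 1 library and the list names neither. Depth limits every absence, since a weak or missing peak does not show absent binding.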
